A study of Mus musculus with 6 samples.

Results

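The genes described here are 6 markers of the epicardium and of mesothelium (Wt1, Tcf21, Upk3b, Upk1b, Bnc1 and Lrrn4) and 4 keratins of simple epithelia (Krt8, Krt18, Krt19 and Krt7). They were chosen by name, and each matched 1 entry, so that 10 of the 23290 entries of the authors' deposited table are described. Whole hearts of mouse embryos on a C57BL/6 background were taken at E10.5 and their RNA was sequenced, with 3 control and 3 mutant hearts, each from its own embryo. Control embryos were Nkx2-5+/+ with 1 floxed and 1 wild-type copy of Casz1, a zinc finger transcription factor (Casz1f/+), and carried no Cre. Mutant embryos were Nkx2-5Cre/+ and Casz1f/f, so Cre recombinase sat at 1 of their Nkx2-5 alleles and both Casz1 copies were floxed. A floxed Casz1 allele is therefore shared by both groups, whereas Cre and the altered Nkx2-5 allele belong to the mutants alone, and Cre acts only in cells that use, or descend from cells that used, the Nkx2-5 locus. The design asks which genes differ in the heart when Casz1 is mutated. An effect of Casz1 cannot be told apart here from an effect of Cre or of the altered Nkx2-5 allele.

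The epicardium is the mesothelial sheet that covers the heart, spreading over the myocardium from the proepicardium at about this stage, and cells that leave it give rise to fibroblasts and vascular smooth muscle. Wt1 and Tcf21 are transcription factors of that sheet. Wt1, uroplakins, Bnc1 and Lrrn4 are also found in the mesothelium that lines the body cavities. Simple keratins form the intermediate filaments of single-layered epithelia as pairs of a type II chain (Krt8, Krt7) with a type I chain (Krt18, Krt19). Mesothelium contains them, and so do foregut and pharyngeal endoderm, which lie next to the heart at this stage.

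Every level is given in FPKM, a fragment count corrected for the length of the transcript and the size of the library, so levels of different genes can be compared. The authors' deposited table holds 1 pooled FPKM per genotype and lists no single heart, so whether the hearts of both genotypes overlap and how deeply each was sequenced are unknown here. All FPKM values, fold changes, p and q come from the authors' deposited table. The SE given with a log2 fold change is its standard error as the deposited test statistic implies it. The 3 hearts per genotype are described as biological replicates. A gene was called changed at the authors' q under 0.05. The targeted gene, Casz1, had 6.61 FPKM in controls and 4.68 FPKM in mutants per the authors' deposited table (log2 -0.50, SE 0.306, q = 1.00). Nkx2-5 read 143.0 and 82.9 FPKM (log2 -0.79, SE 0.295, q = 0.536). Neither was called.

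Krt8 and Krt18 lie side by side on chromosome 15 and are read away from each other, with 23.9 kb between their starts. The bases before their starts are shown because these neighbours gave the highest fold changes of the 10 genes. Those of Krt7, 592 kb away in the same type II cluster, and of Upk3b, the epicardial gene with the highest level, are shown for contrast. RefSeq promoters (GRCm38.p6) were matched for 7 of the 10 genes, not for Wt1, Upk1b and Krt19. Each line runs 5′ to 3′ on the gene's own strand, from 250 bases before the annotated start to 10 bases after it, and capitals mark the letters TATAA, the core of a TATA box, on either strand.
Krt8 (chr15:102004333-102004592, minus strand): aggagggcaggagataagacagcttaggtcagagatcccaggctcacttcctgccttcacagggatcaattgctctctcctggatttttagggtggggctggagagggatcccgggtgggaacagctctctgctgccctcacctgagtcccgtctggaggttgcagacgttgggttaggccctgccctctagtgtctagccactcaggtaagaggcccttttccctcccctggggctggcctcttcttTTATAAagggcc
Krt18 (chr15:102027966-102028225, plus strand): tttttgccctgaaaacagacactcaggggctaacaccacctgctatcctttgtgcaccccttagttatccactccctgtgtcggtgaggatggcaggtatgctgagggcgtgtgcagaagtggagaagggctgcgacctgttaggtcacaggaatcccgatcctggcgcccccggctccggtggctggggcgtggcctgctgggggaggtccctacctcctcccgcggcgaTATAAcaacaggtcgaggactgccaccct
Krt7 (chr15:101412153-101412412, plus strand): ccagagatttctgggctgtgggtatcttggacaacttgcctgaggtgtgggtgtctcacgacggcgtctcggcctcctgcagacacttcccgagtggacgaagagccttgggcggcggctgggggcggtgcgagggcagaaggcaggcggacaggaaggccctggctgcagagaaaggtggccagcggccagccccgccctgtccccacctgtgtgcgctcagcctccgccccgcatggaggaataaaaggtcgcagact
Upk3b (chr5:136038246-136038505, plus strand): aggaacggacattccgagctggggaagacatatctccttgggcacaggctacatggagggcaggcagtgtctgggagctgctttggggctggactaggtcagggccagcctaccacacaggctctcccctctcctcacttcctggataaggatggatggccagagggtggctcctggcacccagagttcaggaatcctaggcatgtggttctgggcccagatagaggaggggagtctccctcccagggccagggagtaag

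The letters TATAA occurred in the windows of Krt8 and Krt18 and in none of the other 5 matched, against 23.3% of 32851 RefSeq promoter windows of the same length. Only these exact letters were searched, so similar runs such as the ataaaa near the end of the Krt7 window were not counted. In Krt18 the match began 19 bases before the annotated start. In Krt8 matches on both strands overlapped and lay across the annotated start. These positions depend on the RefSeq starts, 102004342 for Krt8 and 102028216 for Krt18. GENCODE places the outermost starts further upstream, at 102004482 and 102028180, and which start these hearts use is not known here. The GC box GGGCGG, searched on both strands, occurred 4 times in the Krt7 window and 5 times in that of Bnc1, and 33.4% of all windows held it. The letters TGANTCA (an AP-1 site) and TNAAGTG (an NKX2-5 site) were in none of the 7 windows, and 7.03% and 10.4% of all windows held them. A forkhead motif, TGTTTNC, had 1 match each in Krt18 and Lrrn4, against 18.4% of windows with a match. These are matches of letters and do not show binding.

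Of the 10 genes, 1 rose in mutant hearts and 0 fell per the authors' deposited table. The gene that rose was Krt8, and the 6 epicardial genes and the other 3 keratins were not called. Over all 15387 tested entries 0.422% were called, 0.305% as higher and 0.117% as lower. A count of 0 calls in a short list of genes is therefore near the share over all entries. All 10 genes were tested by the authors. In a whole heart, a change in the number of cells of a type cannot be told apart from a change in RNA per cell.

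**Figure D1:**
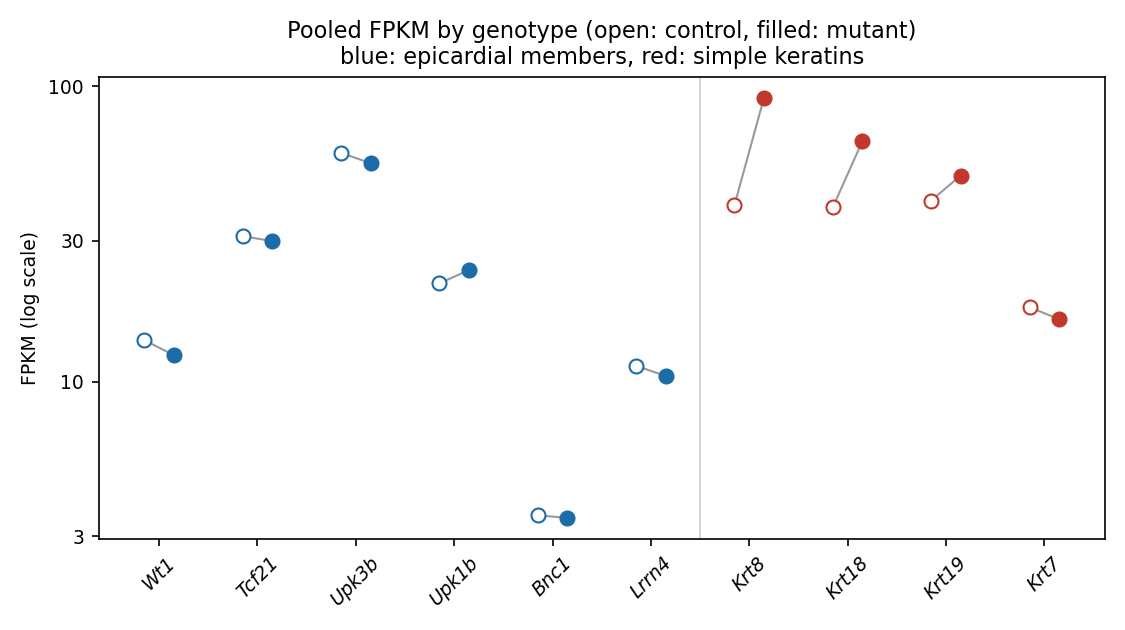
Pooled FPKM (log scale) of the 6 epicardial genes (blue) and 4 simple keratins (red) in control (open) and mutant (filled) hearts, 1 value per genotype from the authors' deposited table. Krt8 goes from 39.7 to 91.5 FPKM, while each epicardial pair lies close together.

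Krt8, the type II chain of the main simple keratin pair, read 39.7 FPKM in controls and 91.5 FPKM in mutants per the authors' deposited table. Its pooled value was the highest of the 10 genes in mutant hearts. It rose 2.31-fold (log2 1.21, SE 0.297, 95% interval 0.62 to 1.79, q = 0.0169 per the authors' deposited table). The gene spans chromosome 15 from 101996711 to 102004342 (mm10). Few calls fell on genes of this level: of 6143 tested entries with at least 10 FPKM in both genotypes 6 were called (0.0977%), and 3 of these rose (0.0488%). Of the 50-base words of the longest Krt8 transcript in GENCODE, 29.7% also occur in transcripts of other genes, most of them in the pseudogene Krt8-ps, so part of its reads could be placed in more than 1 way. Neither Krt8-ps nor Gm36026, a noncoding gene that overlaps Krt8 by 271 bases on the opposite strand, was matched to an entry.

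Krt18, the type I partner of Krt8, read 39.0 FPKM in controls and 65.2 FPKM in mutants. The value was 1.67-fold higher in mutants (log2 0.74, SE 0.291, 95% interval 0.17 to 1.31). Its unadjusted p was 0.0109 and its q 0.695 per the authors' deposited table, and it was not called. An unadjusted p under 0.05 was found for 2 of the 10 genes, Krt8 and Krt18, and for 3.17% of all tested entries. Krt18 spans chromosome 15 from 102028216 to 102032026. Only 0.720% of its 50-base words occur in transcripts of other genes.

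The partners stood at nearly the same level in control hearts, with a Krt8 to Krt18 ratio of FPKM of 1.02, and at a ratio of 1.40 in mutant hearts. The gain was 51.8 FPKM for Krt8 and 26.2 FPKM for Krt18. Whether the fold changes of the partners differ was not tested, and their intervals overlap.

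Krt19, a type I keratin without the usual tail domain, read 41.1 FPKM in controls and 49.9 FPKM in mutants per the authors' deposited table. A log2 fold change of 0.28 (SE 0.291, 95% interval -0.29 to 0.85, q = 1.00) was smaller than its error. It spans chromosome 11 from 100140811 to 100145919.

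Krt7, a type II keratin of ducts and mesothelium, read 17.9 FPKM in controls and 16.3 FPKM in mutants per the authors' deposited table. The log2 fold change was -0.14 (SE 0.307, 95% interval -0.74 to 0.47, q = 1.00), the only negative one among the 4 keratins. The interval reaches from 0.6002-fold to 1.38-fold, so a rise of the size seen for Krt8 lies outside it. Krt7 spans chromosome 15 from 101412403 to 101427806, and the antisense gene Gm671 overlaps it on the opposite strand. The Krt8 to Krt7 ratio of FPKM was 2.22 in control and 5.61 in mutant hearts.

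**Figure D2:**
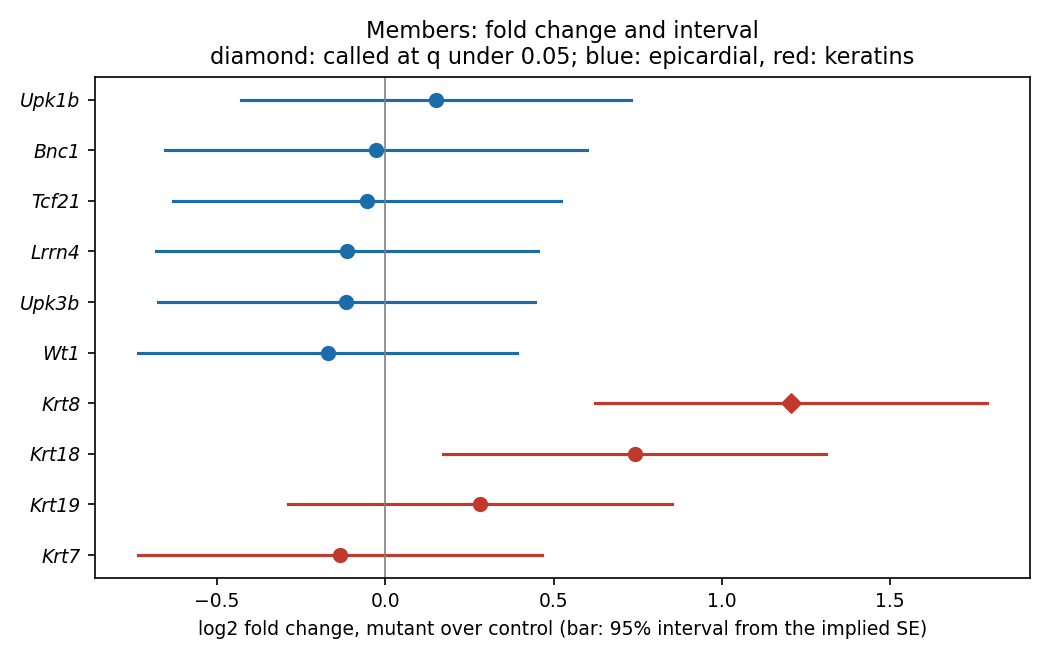
Log2 fold change of mutant over control for each gene, with 95% intervals from the implied SE; the diamond marks the call at q under 0.05. The intervals of Krt8 (0.62 to 1.79) and Krt18 (0.17 to 1.31) lie above 0, and those of the 6 epicardial genes span 0.

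Among the epicardial genes, the transcription factor Wt1, which controls epicardial cell identity, read 13.8 FPKM in controls and 12.3 FPKM in mutants per the authors' deposited table. The log2 fold change was -0.17 (SE 0.287, 95% interval -0.73 to 0.39). Tcf21, a basic helix-loop-helix factor needed for cardiac fibroblasts, read 31.1 and 29.96 FPKM (log2 -0.05, SE 0.294, 95% interval -0.63 to 0.52). Both factors were thus close to their control level, with differences smaller than the SE. Wt1 lies on chromosome 2 from 105126529 to 105173614 and Tcf21 on chromosome 10 from 22817275 to 22820128. The antisense gene Gm10824 covers Tcf21 on the opposite strand, and the sources used here do not state whether the libraries kept strand.

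Bnc1, a zinc finger protein of mesothelium and stratified epithelia, was the lowest of the 10 genes, at 3.53 FPKM in controls and 3.47 FPKM in mutants per the authors' deposited table. A log2 fold change of -0.03 (SE 0.320) was the smallest in size among the 10. The interval from -0.65 to 0.60 was the widest among the 6 epicardial genes. Bnc1 lies on chromosome 7 from 81966662 to 81992299, and the pseudogene 4833418N17Rik overlaps it on the opposite strand.

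Upk3b, a uroplakin and marker of mesothelial surfaces, was the most abundant epicardial gene, at 59.6 FPKM in controls and 55.0 FPKM in mutants per the authors' deposited table (log2 -0.12, SE 0.286, 95% interval -0.68 to 0.44). Upk1b, a uroplakin of the tetraspanin family, read 21.5 and 23.9 FPKM and was the 1 epicardial gene with a positive log2 fold change (0.15, SE 0.296, 95% interval -0.43 to 0.73). Both differences were below their SE. Lrrn4, a leucine-rich repeat membrane protein of mesothelium, read 11.3 FPKM in controls and 10.47 FPKM in mutants per the authors' deposited table (log2 -0.11, SE 0.290). Upk3b lies on chromosome 5 from 136038496 to 136044993, Upk1b on chromosome 16 from 38773184 to 38800203 and Lrrn4 on chromosome 2 from 132868516 to 132880862.

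As a group the 6 epicardial genes had a median log2 fold change of -0.08, with 5 below 0 and 1 above, and all unadjusted p at 0.551 or higher. The median over all 15301 tested entries with a finite fold was -0.02. Their 95% intervals reached up to 1.66-fold and down to 0.601-fold. Among the 9 genes at or above 10 FPKM in each genotype, 6 (Krt7 and the epicardial genes other than Bnc1) had a log2 fold change between -0.2 and 0.2, as did 88.9% of the 6143 tested entries at that level. The 4 keratins had a median of 0.51, with 3 above 0 and 1 below. Summed over genes, FPKM of the epicardial 6 was 140.9 in control and 135.1 in mutant hearts, and that of the keratins was 137.6 and 222.8. The difference between the medians was not tested.

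Keratin levels were set against Upk3b, whose own values lay within 5 FPKM of each other. The Krt7 to Upk3b ratio was 0.3004 in control and 0.296 in mutant hearts, and the Wt1 to Upk3b ratio was 0.232 and 0.224. Krt19 to Upk3b stood at 0.690 and 0.908, Krt18 to Upk3b at 0.655 and 1.19, and Krt8 to Upk3b at 0.666 and 1.66. The keratins thus ran from almost no shift relative to this mesothelial gene for Krt7 to the greatest shift for Krt8. The ratios restate the pooled values without an error, and whether they differ between genotypes was not tested.

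By pooled FPKM, Upk3b was first in control hearts, followed by Krt19, Krt8, Krt18, Tcf21, Upk1b, Krt7, Wt1, Lrrn4 and Bnc1. In mutant hearts Krt8 and Krt18 stood first, ahead of Upk3b and Krt19, and the order of the remaining 6 was the same. Krt19, Krt8 and Krt18 lay between 39.0 and 41.1 FPKM in control hearts, too close to be ranked without values per heart.

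Most other mesothelial and epicardial genes were not called either. Of 20 listed genes 19 were tested, 1 rose, 0 fell and 18 were not called per the authors' deposited table, with a median log2 fold change of 0.08. Muc16 was not matched to an entry and is not analysed here. For the 11 that reached 1 FPKM in a genotype the median was -0.01, and 0 of them were called or had an unadjusted p under 0.05. Podxl, the sialomucin podocalyxin that vascular endothelium also makes, had 52.2 FPKM in controls and 54.2 FPKM in mutants per the authors' deposited table. Gata5, a zinc finger factor of epicardium and endocardium, read 22.5 and 27.0 FPKM. Tbx18, a T-box factor of the proepicardium and epicardium, read 13.6 and 13.5 FPKM (log2 -0.01, SE 0.279).

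The 1 gene of that list that rose was Sbspon, a somatomedin B and thrombospondin domain protein, from 0.0695 to 0.434 FPKM per the authors' deposited table (log2 2.64, SE 0.610, q = 0.00583). Both levels are under 1 FPKM, and with a pseudocount of 1 FPKM its log2 fold change was 0.42. Mesothelin, Msln, a surface protein of mature mesothelium, was barely detected, at 0.401 and 0.143 FPKM (log2 -1.48, SE 0.592, q = 0.746). The remaining uroplakins were low as well: Upk1a read 0.882 and 0.832 FPKM, Upk3bl read 0.0646 and 0.237 FPKM, Upk2 and Upk3a were below the level the authors tested, and 0 of the 2 tested were called (1 at an unadjusted p under 0.05, Upk3bl).

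Genes of epicardial derivatives and of mesenchymal transition had a median log2 fold change of 0.08. None of the 11 tested was called, a count of 0 that also holds for an unadjusted p under 0.05. Col3a1 and Col1a1, fibrillar collagens, read 72.3 and 76.4 FPKM and 30.4 and 30.2 FPKM in control and mutant hearts per the authors' deposited table. Twist1, a mesenchymal helix-loop-helix factor, read 33.6 and 37.9 FPKM. Tcf12 carried a failed status and has no test.

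Endoderm and other simple epithelia also make these keratins, and 9 of their other genes rose beside Krt8. Of 24 listed genes all were tested, 9 rose, 0 fell and 15 were not called per the authors' deposited table. All 24 had positive log2 fold changes, from 0.21 to 5.74 with a median of 1.93, and 17 had an unadjusted p under 0.05. Over all tested entries 0.305% were called as higher and 3.17% had an unadjusted p under 0.05. The list was chosen with earlier results of these data known, so its counts are no independent support for the Krt8 call. In control hearts 20 of them were under 1 FPKM, and in mutant hearts 6. Their summed FPKM was 23.5 in control and 57.0 in mutant hearts, a gain of 33.5 FPKM against 85.2 FPKM for the 4 keratins. The part of endoderm in the Krt8 result was not tested.

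The epithelial adhesion gene Epcam rose from 0.971 to 4.42 FPKM (log2 2.19, SE 0.534) and the embryonic claudin Cldn6 from 1.503 to 7.27 FPKM (log2 2.27, SE 0.536) per the authors' deposited table. The pharyngeal pouch factors Pax1 and Pax9 rose from 0.0306 to 1.64 FPKM and from 0.0497 to 0.628 FPKM, and the hedgehog ligand Shh from 0.166 to 1.28 FPKM. Esrp1, an epithelial splicing regulator, rose from 0.220 to 1.37 FPKM (log2 2.64, SE 0.635) per the authors' deposited table. The other 3 that rose were the cadherin Cdh1 (log2 2.12), the forkhead factor Foxa1 (log2 2.34) and the epithelial factor Grhl2 (log2 2.45). After adding 1 FPKM to both genotypes, log2 fold changes were 1.46 for Epcam, 1.72 for Cldn6, 1.36 for Pax1 and 0.97 for Shh.

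By the mean FPKM of both genotypes, Cldn6 was the third of the list, and the genes above it were not called. Spint2, a protease inhibitor, read 8.77 and 12.5 FPKM (log2 0.51, SE 0.405), and Hhex, a homeobox factor also found in endothelium, read 4.201 and 4.87 FPKM (log2 0.21, SE 0.378). Krt8 was far more abundant than any of them. The Krt8 to Epcam ratio of FPKM was 40.9 in control and 20.7 in mutant hearts, and Krt8 to Cldn6 was 26.4 and 12.6. The fold was 4.55 for Epcam and 4.84 for Cldn6 against 2.31 for Krt8, but the 95% intervals overlap and the difference was not tested. Pooled values do not show whether they were high in the same hearts as Krt8.

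**Figure D3:**
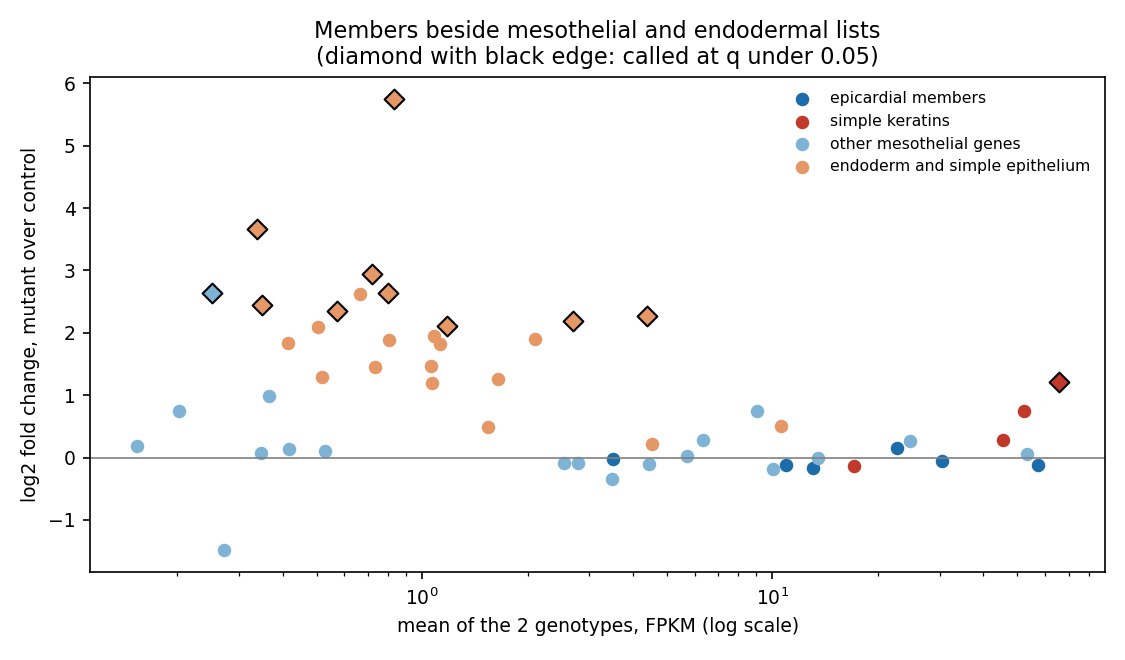
Log2 fold change of mutant over control against the mean FPKM of both genotypes (log scale) for the epicardial genes, keratins, other mesothelial genes and the endoderm and simple epithelium list; black-edged diamonds were called at q under 0.05. Genes of the endoderm and simple epithelium list lie above 0 at low levels (0.21 to 5.74), and the mesothelial genes with at least 1 FPKM scatter around 0.

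Among markers of other tissues near or in the heart, 0 rose, and over all tested entries only 0.305% were called as higher. Counts of 0 in lists this short are near that share and are no result about these tissues. The 10 hepatic genes had a median of -0.11, and neither the authors' q nor an unadjusted p under 0.05 was reached by any (0 of 10). The plasma protein genes Afp, Apoa2 and Trf read 35.7, 11.1 and 10.01 FPKM in controls and 27.8, 9.49 and 8.91 FPKM in mutants per the authors' deposited table. Cardiomyocyte genes gave 0 calls among 8 (1 with an unadjusted p under 0.05, Nkx2-5), with log2 fold changes from -0.79 to 0.56 and a median of -0.07. The most abundant of them, the atrial myosin light chain Myl7, read 5080 and 7496 FPKM (log2 0.56, SE 0.601). The 8 endothelial genes had a median of -0.17 and 0 calls, and 0 reached an unadjusted p under 0.05. The globin genes Hba-x, Hbb-bh1 and Hbb-y, also listed for blood, had too many fragments for the authors' test and have no usable value. Of 5 tested blood genes 0 rose and 1 fell, the macrophage lysozyme Lyz2 (log2 -3.14). An unadjusted p under 0.05 was found for 2 of them, both lower in mutants, Lyz2 and the platelet gene Pf4. Pf4 read 60.5 FPKM in controls and 28.8 FPKM in mutants (log2 -1.07, SE 0.333, q = 0.174) and was not called. The cardiomyocyte markers of the labelled tissue were all at 8.59 FPKM or more in both genotypes. Their presence does not show whether other tissue was included, which was not tested.

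Across the keratin family, 52 entries carried a keratin symbol, of which 14 were tested and 38 were below the level the authors tested. Entries at 0 in both genotypes numbered 13. The 4 simple keratins made up 94.0% of the summed keratin FPKM in control and 96.4% in mutant hearts. Only 7 keratins reached 1 FPKM in either genotype, the 4 simple ones and Krt20, Krt10 and Krt79. Krt20, a type I keratin of gut epithelium, read 3.76 and 3.11 FPKM, Krt10 of the epidermis 1.43 and 1.45 FPKM, and Krt79 1.45 and 1.14 FPKM per the authors' deposited table. The 10 tested keratins other than the simple 4 gave 0 calls and 2 with an unadjusted p under 0.05, both higher. These were the basal epithelial partners Krt5, at 0.0118 and 0.122 FPKM (q = 0.345), and Krt14, at 0.146 and 0.356 FPKM (q = 1.00), per the authors' deposited table.

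The genes around Krt8 and Krt18 were not called. Within 200 kb, 10 other entries were tested, with 0 calls, 0 at an unadjusted p under 0.05 and log2 fold changes from -0.35 to 0.26. Over all tested entries these shares were 0.422% and 3.17%, so counts of 0 among 10 say little about the locus. On the Krt18 side the next gene was Eif4b, a translation initiation factor, at 89.5 and 85.0 FPKM per the authors' deposited table (log2 -0.07, SE 0.310). On the Krt8 side Krt78 was below the tested level, and the next tested gene was Krt79 (log2 -0.35, SE 0.487). Around Krt19, Krt15 and Krt9 were below the tested level, and 3 entries were tested with 0 calls and 1 at an unadjusted p under 0.05, Krt14.

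**Figure D4:**
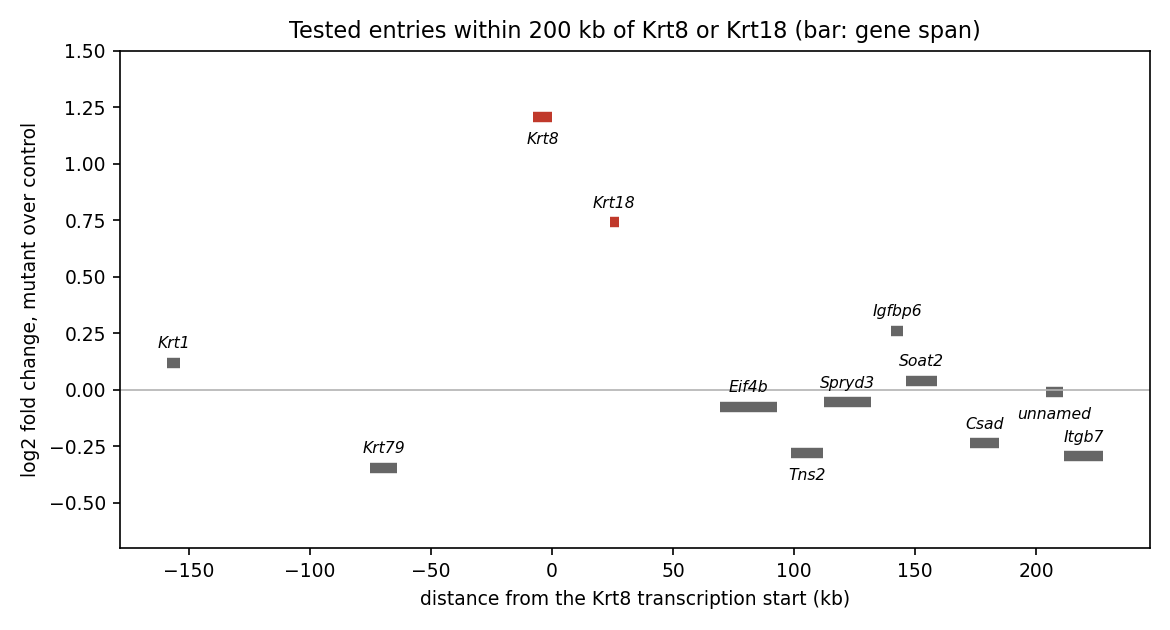
Log2 fold change of mutant over control of the tested entries within 200 kb of Krt8 or Krt18, by distance in kb from the Krt8 transcription start; bars span each gene. Krt8 (1.21) and Krt18 (0.74) stand above their neighbours, which lie between -0.35 and 0.26.

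Other intermediate filament genes and the junction proteins that anchor keratins were not called. Vim, the mesenchymal filament protein, read 672 and 696 FPKM, Des, the muscle filament protein, read 465 and 420 FPKM, and the lamin Lmnb1 read 113 and 109 FPKM per the authors' deposited table. Of 11 tested filament genes 0 were called, while an unadjusted p under 0.05 was found for 2, the neurofilament chains Nefl (log2 0.77, SE 0.364) and Nefm (log2 1.23, SE 0.539). Among 12 tested linker and desmosome genes there were 0 calls and a median of -0.05. Pkp2, a desmosomal plakophilin of the heart, read 49.8 and 39.7 FPKM, Dsp, desmoplakin, which ties keratin and desmin filaments to the junction, read 44.9 and 46.9 FPKM, and Jup, plakoglobin, read 24.6 and 27.5 FPKM per the authors' deposited table. An unadjusted p under 0.05 was found for 2 of them, in opposite directions: Perp, a desmosomal tetraspan protein, at 27.6 and 14.5 FPKM (q = 0.196), and the epithelial plakophilin Pkp3, at 0.127 and 0.378 FPKM (q = 0.981).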

How the data were processed

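RNA from 3 control and 3 mutant hearts was sequenced. The submitters' processing notes name TopHat2 2.0.8, Bowtie2 2.1.0.0, Cufflinks 2.1.1, Cuffdiff and the mm10 build. The authors' FPKM is 1 pooled value for a gene in a genotype, per the file headers, so depth per heart is unknown. Beside it stand log2 fold changes, p-values and q-values, all as deposited. Library normalisation was not given in the sources used here. Cuffdiff tested 15387 of 23290 entries. It left out 7742 as too low, 96 as failed and 65 with too many fragments.

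RefSeq identifiers of 23125 entries were named through a RefSeq gene table of the same assembly (GRCm38.p6) and GENCODE. The SE is the log2 fold change divided by the test statistic, since the deposited p matched its two-sided normal tail. Intervals assume a normal distribution. No count model was run. The members and lists were chosen with earlier results of these data known. Named genes are the members, up to 6 called members and the 3 most abundant of each list, keratins with at least 1 FPKM and the nearest neighbours. Epcam, Cdh1, Msln, Upk2, Tcf12, Krt5, Krt14, Nefl, Nefm, Perp, Pkp3 and the tissue markers were named after their values were seen. Words of 50 bases were compared with GENCODE transcripts. The adjustment was tested on simulated data. Scripts ran in Python 3.11.15 with pandas 2.3.3, numpy 2.4.6, scipy 1.17.1 and matplotlib 3.10.9.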

Additional observations from a re-analysis of the deposited data

How the results depend on the processing

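The call of Krt8 was kept when adjusted over entries with at least 1 FPKM (q = 0.0176). A threshold of q under 0.1 and a 2-fold minimum could not remove the call. The threshold is looser, and every called entry with a finite fold changed at least 2.29-fold. The Krt8 call was lost at q under 0.01 and under a Bonferroni adjustment, which left 0 of the 10 genes called against 2 at an unadjusted p under 0.05. Pseudocounts, centring on the median of expressed entries (-0.02) and rescaling of FPKM (-0.03) moved no member's log2 fold change by as much as its SE. All 40 such values kept their sign, with Krt8 between 1.17 and 1.22. A pseudocount cannot reverse a sign, and centring and rescaling shift every gene by the same small constant. The kept signs therefore say little about stability. The medians of the epicardial genes (-0.11 to -0.07) and keratins (0.50 to 0.53) kept their sign as well, with the same limit. No SE was computed for a median. The value of -0.11 is for the 5 epicardial genes with at least 5 FPKM. Among the other mesothelial genes, the filter at 1 FPKM left 0 of 11 called, since Sbspon lies below it. Of the 9 calls in the endoderm and simple epithelium list 6 passed that filter, mostly through the mutant value alone. The filter therefore says nothing about their stability. The neighbour counts at q under 0.1, an alternative chosen after seeing the data, were 0 as before. No paired analysis was possible because the table holds 1 pooled value per genotype, and for the same reason no heart could be left out in turn.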
